A study of Rattus norvegicus with 4 samples.

Results

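The 10 genes described here act in mitochondrial biogenesis and in the expression and copying of mitochondrial DNA (mtDNA). They are the coactivators Ppargc1a and Ppargc1b, the nuclear transcription factors Nrf1, Gabpa and Esrra, and the mtDNA transcription proteins Tfam, Tfb2m and Polrmt. The others are Tfb1m, a mitochondrial rRNA methyltransferase, and the mtDNA polymerase subunit Polg. All 10 were taken by symbol from a list of gene names and were found among the 23360 gene symbols measured. Their messenger RNA was sequenced in INS-1 832/3 cells, an insulin-secreting rat insulinoma line whose cells also carry a human insulin gene, so that all 4 samples come from a tumour line and not from islets. The 2 culture forms were compared. Cells of the 2D group (n = 2) grew as a standard monolayer with no hydrogel, and cells of the 3D group (n = 2) were bioprinted in the hydrogel GelXA LAMININK 411. Both forms were kept in the same supplemented RPMI-1640 medium and harvested after 5 days at passage 3. The labels call the samples of each group biological replicates, without saying how the cultures were separated.

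Mitochondria hold their own circular genome, which encodes a few subunits of the respiratory chain, while every protein that transcribes and copies that genome is made from nuclear genes. The coactivators encoded by Ppargc1a (PGC-1 alpha) and Ppargc1b (PGC-1 beta) bind transcription factors such as nuclear respiratory factor 1, GABP and the estrogen-related receptors, which act on promoters of nuclear mitochondrial genes, among them Tfam. In the organelle TFAM packs and bends the DNA, TFB2M opens the promoter, POLRMT makes the RNA and POLG copies the DNA, and in beta cells the respiratory chain that results couples glucose metabolism to insulin release.

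Promoter stretches of 7 of the 10 genes are given because they hold the letters that the factors on the list, or the cAMP response factor CREB, are known to bind. The windows ran from 250 bases before to 50 bases after each start in RefSeq, build GRCr8, and all 10 genes had one. Each was searched on both strands for the NRF1 core GCGCNTGCG, the ETS core CCGGAAG read by GABP, the estrogen-related receptor half-site AAGGTCA and the cAMP response element TGACGTCA. Capitals mark the match, as it reads 5′ to 3′ on the strand of the gene, with 25 bases on each side.
Ppargc1a, cAMP response element, chr14:63634102-63634159, plus strand: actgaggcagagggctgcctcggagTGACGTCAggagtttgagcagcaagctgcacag
Esrra, NRF1 core, chr1:213543448-213543506, minus strand: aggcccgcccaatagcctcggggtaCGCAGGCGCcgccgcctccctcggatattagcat
Tfb2m, NRF1 core, chr13:93828607-93828665, minus strand: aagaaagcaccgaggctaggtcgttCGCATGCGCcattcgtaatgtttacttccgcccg
Gabpa, ETS core, chr11:37375154-37375210, plus strand: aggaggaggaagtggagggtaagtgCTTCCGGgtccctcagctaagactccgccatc
Tfam, ETS core, chr20:17355292-17355348, plus strand: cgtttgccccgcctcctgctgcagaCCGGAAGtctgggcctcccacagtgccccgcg
Polrmt, ETS core, chr7:10610122-10610178, plus strand: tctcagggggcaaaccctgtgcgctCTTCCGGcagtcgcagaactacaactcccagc
Polg, ETS core, chr1:142808928-142808984, minus strand: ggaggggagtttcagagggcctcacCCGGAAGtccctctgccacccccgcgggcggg

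The ETS core stood in 4 of the 10 windows, against 8.75% of all 33469 rat promoters of the same length. The NRF1 core stood in 2, against 5.75% of all promoters, and the cAMP response element in 1, against 1.83%. The receptor half-site, found in 4.61% of all promoters, stood in none of the 10. The first base of the match lay 181 bases before the start in Ppargc1a, 176 in Esrra and between 46 and 121 in the other genes printed. Nrf1, Ppargc1b and Tfb1m held none of the 4 motifs in these windows, and no window held more than 1 of them, so no matches overlapped. A match describes letters and is neither a bound site nor a cause. Among promoters of the genes tested here the shares were 13.7% for the NRF1 core, 18.1% for the ETS core and 3.11% for the cAMP response element, each above that of all promoters, and 2.79% for the receptor half-site, which was below it.

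The 10 genes did not move together. Ppargc1a rose in 3D culture to 3.74 times its monolayer level, while Tfb1m, Polg and Esrra fell by smaller amounts, and the other 6 genes did not pass the test. Levels are given in transcripts per 1000000 (TPM), summed over the transcripts of a gene. Changes are log2 fold changes, 3D minus 2D, of log2(TPM + 1) after scaling between samples, which understates the change of low genes. A gene was called where its adjusted p in limma (Benjamini-Hochberg over 11960 genes) was below 0.05. By that rule 4 of the 10 genes were called, which is 40.0%, against 38.0% of all genes tested. Of these 1 was higher, against 18.5% of all genes, and 3 were lower, against 19.5%. The groups did not overlap after scaling in 8 of the 10, against 75.5% of all genes. The number of calls among the 10 was thus near the share in the whole table, and their median change was -0.06, against -0.003 over all genes. Without 3D replicate 1 limma called none of the 9 that were then tested, although 3 had an unadjusted p below 0.05, and without 3D replicate 2 it called Ppargc1a alone. With 1 culture left in a group, its spread is assumed to be that of the other group. In another setting insulin and mtDNA transcripts were removed, TPM was rescaled to the same total and no further scaling between samples was made. There the median of the 10 was 0.05, below the 0.11 of all genes, and 2 were called higher and 1 lower. Later mentions of that removal refer to this setting, which changed both steps. With nothing removed and no scaling between samples, the median of all genes was 0.04. In these bulk samples, fewer cells that express a gene and less RNA of it per cell cannot be told apart.

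**Figure D1:**
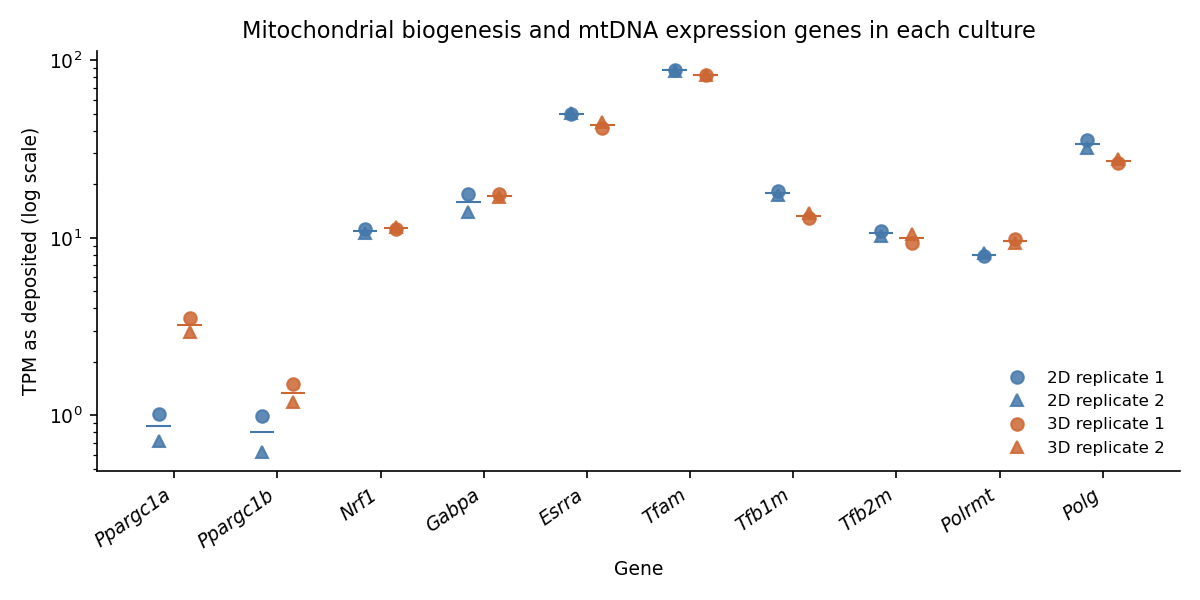
TPM of each of the 10 genes (log axis) in the 2 monolayer cultures (blue) and the 2 bioprinted cultures (orange), with the group mean as a bar. Ppargc1a lay at 1.02 and 0.714 TPM in 2D and at 3.54 and 2.94 TPM in 3D, whereas Tfb1m, Polg and Esrra lay lower in both 3D cultures than in both 2D cultures.

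Among the coactivators, Ppargc1a was measured at 1.02 and 0.714 TPM in the 2D replicates and at 3.54 and 2.94 TPM in the 3D replicates. Both 3D cultures lay above both monolayers, and the gap exceeded the spread within either group. The mean went from 0.866 ± 0.216 to 3.24 ± 0.424 TPM (SD, n = 2), a ratio of 3.74. The log2 change was 1.16 (SE 0.143, 95% confidence interval 0.80 to 1.52, adjusted p = 0.00568). This was above the 95th percentile of all genes tested, at 0.70. Even so, Ppargc1a remained a low transcript, with 7.31% of the tested genes below it by mean level over the 4 samples. It reached the mean of 1 TPM required for testing only through the 3D cultures, so that its presence among the tested genes already favoured a difference. With no such requirement its adjusted p was 0.018. The change lay between 1.05 and 1.76 in 12 alternative settings and was called in 11 of them, and it was not called without 3D replicate 1 (adjusted p = 0.0587).

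Ppargc1b, which encodes the related coactivator PGC-1 beta, was measured at 0.986 and 0.623 TPM in 2D and at 1.49 and 1.18 TPM in 3D. Its groups did not overlap either, but the gap between them was smaller than the spread within either. The mean was 0.805 ± 0.257 TPM in 2D and 1.34 ± 0.216 TPM in 3D (SD, n = 2). The log2 change of 0.36 (SE 0.162, 95% confidence interval -0.05 to 0.76, adjusted p = 0.13) was not called, nor was it in any of 11 alternatives. Like Ppargc1a it met the minimum level only through the 3D cultures, and 0.727% of the tested genes were lower. The ratio of Ppargc1a to Ppargc1b was 1.03 and 1.15 in 2D and 2.38 and 2.49 in 3D, so that the pair stood near parity in the monolayers alone. This pair, like the other ratios given here, was chosen after the values were seen. An exact 2-sided permutation test of 2 against 2 samples cannot go below p = 0.333, the value it gave for each ratio.

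Of the transcription factors, Nrf1 (nuclear respiratory factor 1, which activates nuclear genes of the respiratory chain) was at 11.3 and 10.7 TPM in 2D and at 11.2 and 11.4 TPM in 3D. The groups overlapped, and the log2 change was 0.0025 with a 95% confidence interval of -0.16 to 0.17 (adjusted p = 0.98). The interval leaves room for small changes in either direction. Of its transcripts, ENSRNOT00000080173.1 carried most of the level, at 9.26 and 9.05 TPM in 2D and 10.1 and 9.73 TPM in 3D. The other, ENSRNOT00000011851.3, was at 1.99 and 1.62 TPM in 2D and at 1.12 and 1.70 TPM in 3D, where the groups overlapped.

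Gabpa, the DNA-binding ETS subunit of GABP (NRF-2), was at 17.6 and 14.0 TPM in 2D and at 17.6 and 17.0 TPM in 3D. The second monolayer stood below the other 3 samples. The log2 change was 0.09 (95% confidence interval -0.15 to 0.33, adjusted p = 0.483), and its sign turned to -0.03 without 2D replicate 2.

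Esrra encodes the estrogen-related receptor alpha, a partner through which PGC-1 alpha acts on genes of oxidative metabolism. It was at 49.7 and 50.3 TPM in 2D and at 41.7 and 44.6 TPM in 3D. The monolayers lay close to each other and above both 3D cultures, at means of 50.01 ± 0.388 and 43.2 ± 2.07 TPM (SD, n = 2). Esrra fell by 0.25 on the log2 scale (SE 0.0632, 95% confidence interval -0.41 to -0.09, adjusted p = 0.0294). It was thus a coactivator partner with a change of opposite sign to that of Ppargc1a. The call of Esrra was the least steady of the 4, holding in 8 of 13 alternatives. It was lost with insulin and mtDNA transcripts removed (-0.14, adjusted p = 0.128), where the median of all genes was 0.11 and Esrra relative to it was at -0.25, as without that step. It was also lost without a variance trend (-0.25, adjusted p = 0.0507), without 2D replicate 2 (-0.21, adjusted p = 0.0756), without 3D replicate 1 (-0.21, adjusted p = 0.191) and without 3D replicate 2 (-0.29, adjusted p = 0.108).

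**Figure D2:**
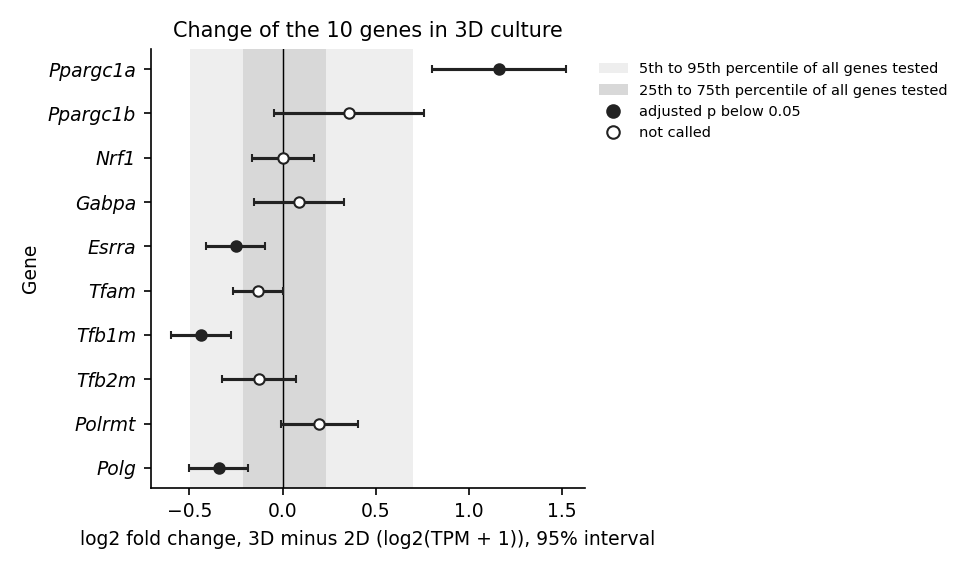
Log2 fold change of log2(TPM + 1), 3D minus 2D, of the 10 genes with 95% confidence intervals from limma, with filled points where the adjusted p was below 0.05 and grey bands for the percentiles of all 11960 genes tested. Ppargc1a, at 1.16, lies right of the outer band, Esrra, Tfb1m and Polg are the filled points left of zero, and the interval of Nrf1 is centred near zero.

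Tfam, the DNA-packaging protein of mtDNA and its transcription activator, was the most abundant of the 10. It was at 88.3 and 87.3 TPM in 2D and at 82.8 and 82.1 TPM in 3D. The replicates lay close together in both groups and the groups did not overlap, with means of 87.8 ± 0.741 and 82.5 ± 0.536 TPM (SD, n = 2). The log2 change was -0.13 (SE 0.0545, 95% confidence interval -0.27 to 0.0038, adjusted p = 0.105), and it was called in none of 13 alternatives. The interval included no change and decreases of up to 0.27 on the log2 scale.

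Tfb1m and Tfb2m are paralogs that both descend from rRNA methyltransferases. TFB1M methylates the small mitochondrial ribosomal RNA, and TFB2M works with POLRMT in starting transcription. Tfb1m was at 18.3 and 17.5 TPM in 2D and at 12.9 and 13.7 TPM in 3D, with both 3D cultures clearly below both monolayers. The means were 17.9 ± 0.594 and 13.3 ± 0.574 TPM (SD, n = 2). Tfb1m fell by 0.44 on the log2 scale (SE 0.0645, 95% confidence interval -0.60 to -0.28, adjusted p = 0.00783). It was the largest decrease of the 10 and was smaller than that at the 5th percentile of all genes (-0.50). The call held in 11 of 13 alternatives and was lost without 3D replicate 1 (-0.41, adjusted p = 0.0846) and without 3D replicate 2 (-0.47, adjusted p = 0.0557), with changes of like size. Tfb2m was at 10.9 and 10.3 TPM in 2D and at 9.32 and 10.6 TPM in 3D, so that the second 3D culture lay between the monolayers as deposited. Its log2 change was -0.13 (SE 0.0803, 95% confidence interval -0.33 to 0.07, adjusted p = 0.25) and was not called in any of 13 alternatives. The ratio of Tfb1m to Tfb2m was 1.67 and 1.70 in 2D and 1.39 and 1.30 in 3D.

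Polrmt, the RNA polymerase of mitochondria, was at 7.85 and 8.15 TPM in 2D and at 9.88 and 9.34 TPM in 3D. Both 3D cultures were above both monolayers, with means of 8.002 ± 0.215 and 9.61 ± 0.381 TPM (SD, n = 2). The log2 change of 0.20 (SE 0.0829, 95% confidence interval -0.01 to 0.40, adjusted p = 0.11) was not called. Of 13 alternatives 1 called it, with insulin and mtDNA transcripts removed, TPM rescaled and no scaling between samples (0.31, adjusted p = 0.0388). In that setting the median of all genes moved to 0.11, and Polrmt stood 0.20 above it. The calls over all genes then split into 3134 higher and 1276 lower, against 2213 and 2328 otherwise.

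Polg, the catalytic subunit of the mtDNA polymerase, was at 35.5 and 32.0 TPM in 2D and at 26.4 and 28.0 TPM in 3D. The 3D cultures were both lower, with means of 33.7 ± 2.50 and 27.2 ± 1.13 TPM (SD, n = 2). Polg fell by 0.34 on the log2 scale (SE 0.0625, 95% confidence interval -0.50 to -0.19, adjusted p = 0.0126). The call held in 10 of 13 alternatives. It was lost with insulin and mtDNA transcripts removed (-0.23, adjusted p = 0.0624), where Polg relative to the median of all genes was at -0.34, as without that step. It was also lost without 3D replicate 1 (-0.31, adjusted p = 0.113) and without 3D replicate 2 (-0.37, adjusted p = 0.073). The ratio of Polrmt to Polg was 0.221 and 0.255 in 2D and 0.375 and 0.334 in 3D. The ratio of Tfam to Polrmt was 11.3 and 10.7 in 2D and 8.39 and 8.79 in 3D.

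By mean TPM over the 4 samples, which is a level per transcript length, the order was Tfam (85.1), Esrra (46.6), Polg (30.5), Gabpa (16.6), Tfb1m (15.6), Nrf1 (11.1), Tfb2m (10.3), Polrmt (8.81), Ppargc1a (2.06) and Ppargc1b (1.07). The range ran from a gene with 88.2% of the tested genes below it to one with 0.727%. In 2D the neighbours Tfb1m and Gabpa overlapped in their samples, as did Nrf1 and Tfb2m and the 2 coactivators. In 3D Gabpa stood above Tfb1m and Ppargc1a above Ppargc1b in both replicates, and only Tfb2m and Polrmt overlapped.

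For the 3 genes with the smallest p, the 2 genes with the nearest centred profile over the 4 samples were taken from 7617 genes with a mean of at least 10 TPM. The measure was the Euclidean distance of log2(TPM + 1). Nearest to Ppargc1a were Ddhd2, which encodes a phospholipase (distance 0.066, from a mean of 19.3 to 47.1 TPM), and AABR07004812.2 (0.0699, from 18.6 to 42.3 TPM). Nearest to Tfb1m were Psmc3, a proteasome ATPase (0.00729), and the cyclin gene Ccne1 (0.0113). Nearest to Polg were Mpc1, a subunit of the mitochondrial pyruvate carrier (0.00845), and Plrg1, a splicing protein (0.0127). With 4 samples such likeness mostly repeats the size of the difference between the groups on the log2(TPM + 1) scale. That scale understates the change of Ppargc1a, whose mean TPM rose 3.74 times, more than that of the 2 genes nearest to it.

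The RNA that these proteins make was also measured. All 13 mtDNA-encoded mRNAs, counted by protein-coding gene, had a positive log2 change in 3D culture, with a median of 0.27. Of these 6 were called higher (46.2% of 13, against 18.5% of all genes called higher). Mt-atp8 and Mt-atp6 share an mRNA, as do Mt-nd4l and Mt-nd4, so the 13 entries are not all separate RNAs. The values are a description, since their direction was known before the lists were set. The 6 were the complex I subunit genes Mt-nd5 (0.48, adjusted p = 0.00928), Mt-nd4l (0.58, adjusted p = 0.0179), Mt-nd4 (0.34, adjusted p = 0.0206), Mt-nd1 (0.31, adjusted p = 0.0375) and Mt-nd2 (0.26, adjusted p = 0.047) and the ATP synthase subunit gene Mt-atp8 (0.49, adjusted p = 0.0454). The smallest change, 0.12, was that of Mt-co2. Mt-nd5 was at 1091 and 951 TPM in 2D and at 1506 and 1426 TPM in 3D. Mt-nd6, the single mRNA copied from the light strand, was measured far lower, at 134 and 143 TPM in 2D and 184 and 154 TPM in 3D. Its change of 0.24 was not called (adjusted p = 0.131) and lay near the median of the 13. Since poly(A) RNA was sequenced, levels of the mtDNA mRNAs also depend on their capture by the poly(A) tail, which was not measured.

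Leaving out 1 culture lowered the count of mtDNA calls, to 2 without 2D replicate 1, 3 without 2D replicate 2 and 0 without 3D replicate 1 or without 3D replicate 2, where limma gave 3 and 5 of the 13 an unadjusted p below 0.05. The sign was positive for all 13 in every setting that kept them. In the main fit alone it was positive for 5926 of all 11960 genes, and how many of these stayed positive in every setting was not counted. The settings reuse the same cultures. All 13 mRNAs share the same TPM total and all but Mt-nd6 are copied from the heavy strand, so their signs are not independent. Mt-co1, Mt-atp6, Mt-co3, Mt-nd3 and Mt-cyb, of which Mt-nd3 alone overlapped between groups after scaling, were not called, with changes from 0.18 to 0.30.

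**Figure D3:**
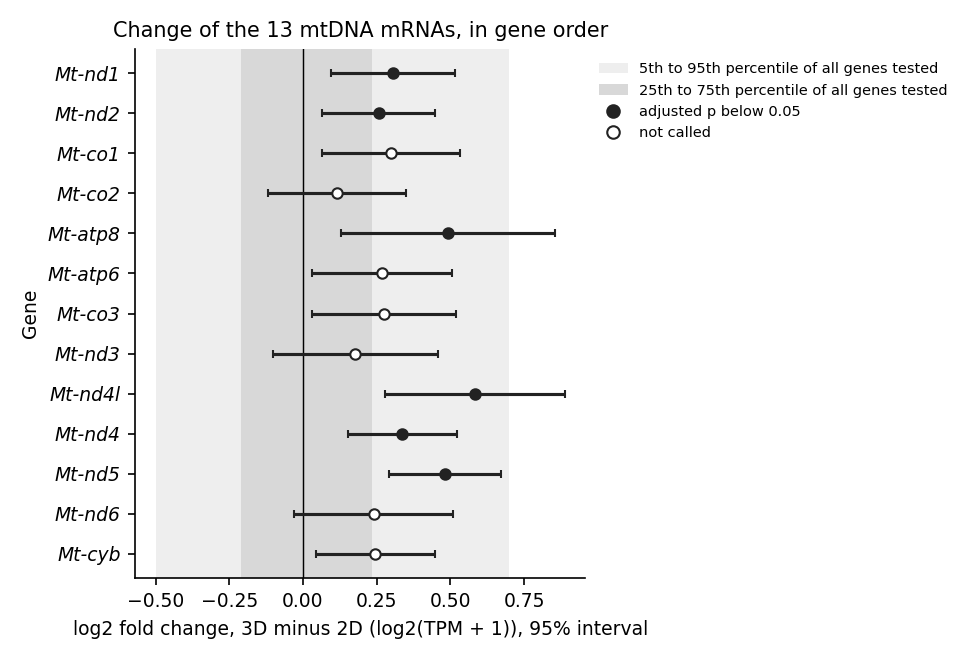
Log2 fold change of log2(TPM + 1), 3D minus 2D, of the 13 mtDNA mRNAs in gene order along the mitochondrial genome, with 95% confidence intervals from limma, filled points where the adjusted p was below 0.05 and grey bands for the percentiles of all genes tested. All 13 points lie right of zero, from 0.12 for Mt-co2 to 0.58 for Mt-nd4l.

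Together the 13 mRNAs made up 10.1% and 9.35% of all TPM in 2D and 12.99% and 12.3% in 3D. Both 3D cultures exceeded both monolayers, by 2.91 percentage points between the means of 9.72 ± 0.53 and 12.6 ± 0.515% (SD, n = 2, exact permutation test, 2-sided, p = 0.333, the smallest possible). A large part came from Mt-atp8, whose share of the 13 was 30.9% and 27.5% in 2D and 33.6% and 31.4% in 3D. The reading frames of Mt-atp8 and Mt-nd4l are short and overlap those of Mt-atp6 and Mt-nd4, so that the division of reads between them is uncertain. Mt-atp8 (0.49) and Mt-nd4l (0.58) had larger log2 changes than Mt-atp6 (0.27) and Mt-nd4 (0.34), with which they share an mRNA. The calls of Mt-atp8, Mt-nd4l and Mt-nd4 depend on that division. Without Mt-atp8 and Mt-nd4l, an alternative added after the data were seen, the share was 6.59% and 6.48% in 2D and 8.08% and 7.90% in 3D, a difference of 1.46 points. The mtDNA mRNAs had positive changes in 3D, while Tfam, Tfb2m and Polrmt, which act in their synthesis, had changes of -0.13, -0.13 and 0.20 that were not called.

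Another 7 lists of nuclear genes of the same pathway were counted on the same scale, 100 tested genes in all. Of these 17 were called higher and 19 lower, together 36.0%, close to the 38.0% of all genes. The counts fell to 25 without 2D replicate 2, to 6 without 3D replicate 2 and to 0 without 3D replicate 1, where 29 genes had an unadjusted p below 0.05 in limma, and were 41 without 2D replicate 1. With insulin and mtDNA transcripts removed, 25 were called higher and 13 lower, at a median of all genes of 0.11. In each list the 3 genes with the smallest p were named by rule, and further genes were named after their values were seen.

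Regulators that act with the coactivators and nuclear factors were the list with the highest median, 0.23 over 24 tested genes. There were 8 called higher, against 18.5% of all genes, and 1 lower, against 19.5%. Together these were 37.5% of the list, against 38.0% of all genes. The 1 lower was the acetyltransferase gene Kat2a (-0.26, adjusted p = 0.0248). Foxo1, a transcription factor inhibited by insulin signalling, was at 10.8 and 9.32 TPM in 2D and 15.3 and 17.1 TPM in 3D (0.60, adjusted p = 0.00748). Myc, a growth regulator, was at 46.8 and 44.3 TPM in 2D and 75.3 and 65.4 TPM in 3D (0.57, adjusted p = 0.0081). Mef2d, a transcription factor that binds the Ppargc1a promoter, was at 45.0 and 36.4 TPM in 2D and 58.5 and 57.3 TPM in 3D (0.46, adjusted p = 0.0137). In all 3 genes both 3D cultures lay above both monolayers. These genes were picked for their small p, and the groups did not overlap in 75.5% of all genes, so this adds no support. The third PGC-1 family gene Pprc1 also rose (0.34, adjusted p = 0.0153), as did Esrrg, a relative of Esrra (0.59, adjusted p = 0.02). The other genes called higher were Nrip1, a corepressor, Crtc3, a CREB coactivator, and Tfe3, a lysosomal and metabolic regulator.

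Further genes listed under mtDNA transcription, not all of them transcription factors, gave 1 call among 7 (14.3%, against 38.0% of all genes). Their median was -0.17. Mterf1, which binds mtDNA at the end of the ribosomal RNA genes, was at 24.8 and 24.6 TPM in 2D and 20.9 and 21.2 TPM in 3D and was called lower (-0.26, adjusted p = 0.0237), and this held in 9 of 13 alternatives. The list had no call with insulin and mtDNA transcripts removed or without 2D replicate 2, where 2 genes each had an unadjusted p below 0.05 in limma, nor without 3D replicate 1 or without 3D replicate 2, where 1 gene each had. Mrpl12, a ribosomal protein that also binds POLRMT (-0.17, adjusted p = 0.0728), and Mterf3, a repressor of mtDNA transcription (-0.18, adjusted p = 0.0896), were not called. Mterf4 (0.18, adjusted p = 0.212) and Nsun4 (0.14, adjusted p = 0.264), the only positive changes of the 7, were not called either. The groups did not overlap in all 7, as in 75.5% of all genes.

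Of 15 genes of mtDNA replication and repair, 4 were called lower and 1 higher (together 33.3%, against 38.0% of all genes), with a median of -0.09. Fen1, the flap endonuclease, was at 92.5 and 92.3 TPM in 2D and 67.3 and 68.0 TPM in 3D (-0.49, adjusted p = 0.00505). Mgme1, an exonuclease of mitochondria, was at 11.9 and 11.9 TPM in 2D and 8.82 and 8.74 TPM in 3D (-0.44, adjusted p = 0.00993). Ung, the uracil DNA glycosylase, was at 42.8 and 41.6 TPM in 2D and 34.97 and 33.5 TPM in 3D (-0.34, adjusted p = 0.012). The fourth was the glycosylase gene Ogg1 (-0.65, adjusted p = 0.0132), and the nuclease gene Exog was called higher (0.33, adjusted p = 0.0253). Fen1, Ung and Ogg1 serve nuclear DNA as well. The direct partners of Polg, its accessory subunit gene Polg2 (0.23, adjusted p = 0.129) and the helicase gene Twnk (0.02, adjusted p = 0.826), were not called.

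Nucleoid and TFAM turnover genes split, with 2 called higher and 3 lower of 10 and a median of -0.12. Of all genes tested, 18.5% were called higher and 19.5% lower, together 38.0%. The chaperonin gene Hspd1 was at 379 and 358 TPM in 2D and 292 and 283 TPM in 3D (-0.40, adjusted p = 0.00695). Phb, prohibitin, was also lower (-0.34, adjusted p = 0.0115), while Hspa9, the mitochondrial HSP70, was higher, at 191 and 185 TPM in 2D and 247 and 235 TPM in 3D (0.31, adjusted p = 0.0134). The other calls were Dhx30, an RNA helicase, higher (0.26, adjusted p = 0.0261), and Shmt2, an enzyme of folate metabolism, lower (-0.25, adjusted p = 0.0197). Lonp1, the protease that degrades TFAM, was at 83.7 and 83.0 TPM in 2D and 89.7 and 89.9 TPM in 3D and was not called (0.06, adjusted p = 0.386).

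Of 13 genes of nucleotide supply, 2 were called higher and 3 lower (together 38.5%, against 38.0% of all genes), with a median of -0.04. The median was 0.06 with insulin and mtDNA transcripts removed, where that of all genes was 0.11, so that the list stood 0.05 below all genes, and it was 0.0035 without 2D replicate 1. Slc25a36, a pyrimidine nucleotide carrier of the inner mitochondrial membrane, was at 36.4 and 28.2 TPM in 2D and 70.7 and 61.0 TPM in 3D. Its log2 change of 0.97 (adjusted p = 0.00589) was the highest of all 7 lists. Rrm1, a ribonucleotide reductase subunit that mainly serves nuclear DNA synthesis, was lower (-0.52, adjusted p = 0.00428), as was Suclg1, a succinyl-CoA ligase subunit (-0.35, adjusted p = 0.0136). The others were Mpv17, an inner membrane protein of mtDNA maintenance, called higher (0.31, adjusted p = 0.0275), and the nucleotide hydrolase gene Samhd1, called lower (-0.61, adjusted p = 0.0333).

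Among 22 genes of mitochondrial RNA processing, 4 were called higher and 3 lower (together 31.8%, against 38.0% of all genes), with a median of -0.05. With insulin and mtDNA transcripts removed it was 0.05, where that of all genes was 0.11, and relative to all genes it was -0.05 in both settings. Rexo2, an oligoribonuclease that removes short RNAs in mitochondria, was at 112 and 107 TPM in 2D and 72.9 and 77.3 TPM in 3D (-0.58, adjusted p = 0.00409). Hsd17b10, a subunit of mitochondrial RNase P, was also lower (-0.38, adjusted p = 0.0089), and so was Slirp, an RNA stability factor (-0.42, adjusted p = 0.0281). The 4 higher genes were Tbrg4 (0.29, adjusted p = 0.018), Mrm1, an rRNA methyltransferase (0.29, adjusted p = 0.0187), Mtpap, the mitochondrial poly(A) polymerase (0.27, adjusted p = 0.0284), and Grsf1, an RNA granule protein (0.24, adjusted p = 0.03). Lrpprc, the partner of SLIRP in keeping mRNAs stable, was at 74.0 and 70.0 TPM in 2D and 73.7 and 73.2 TPM in 3D (-0.01, adjusted p = 0.846).

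Nuclear genes often used as markers of mitochondrial mass gave 4 calls among 9 (44.4%, against 38.0% of all genes), all lower (19.5% of all genes were), with a median of -0.17. With insulin and mtDNA transcripts removed, 3 were lower and 1 higher, and the median relative to all genes was -0.16. Cycs, cytochrome c, was at 325 and 314 TPM in 2D and 242 and 247 TPM in 3D (-0.43, adjusted p = 0.00547). Tomm40, the import channel (-0.35, adjusted p = 0.0105), and Vdac3, an outer membrane channel (-0.37, adjusted p = 0.0106), were lower too, as was Tomm22 (-0.24, adjusted p = 0.0434). Citrate synthase, Cs, was at 191 and 162 TPM in 2D and 161 and 166 TPM in 3D and was not called (-0.14, adjusted p = 0.155). Both Vdac1 (0.07) and Tomm20 (0.03) had small positive changes that were not called.

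**Figure D4:**
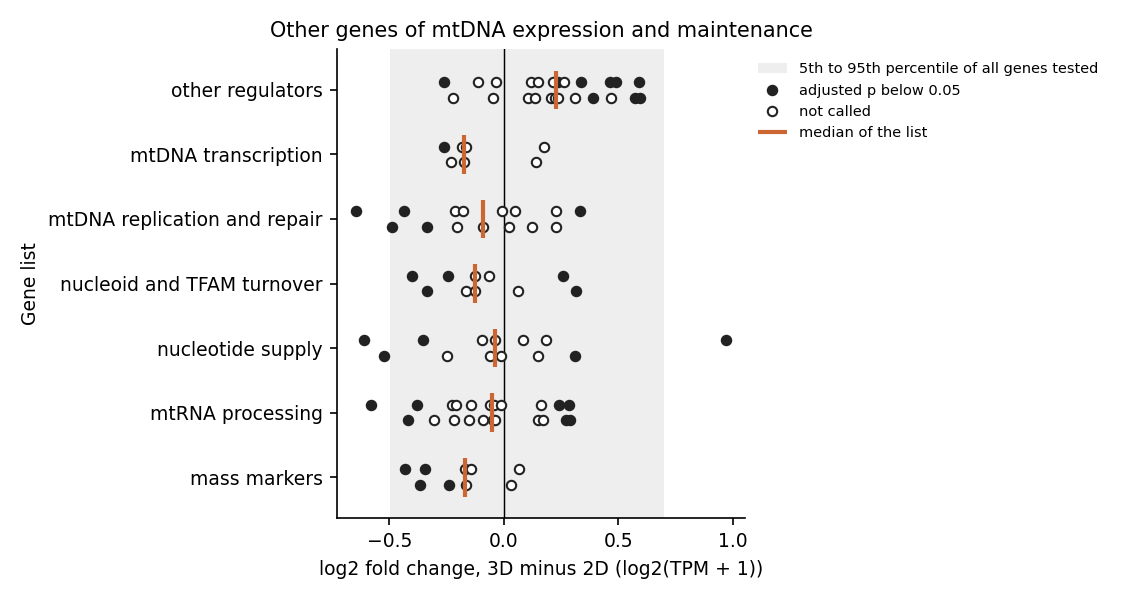
Log2 fold change of log2(TPM + 1), 3D minus 2D, of 100 tested genes in 7 lists, with filled points where the adjusted p was below 0.05, an orange bar at the median of each list and a grey band from the 5th to the 95th percentile of all genes tested. The regulators have the highest median, 0.23, and the lists of mtDNA transcription and mass markers have medians of -0.17.

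All samples summed to 1000000 TPM and held 19355 to 19959 of 31201 transcripts above 0. TPM keeps no read depth, so the depth of each sample cannot be taken from these values. The study's methods give 1 read count per sample, without separate figures for the samples. Of 17 beta-cell markers, 16 were found, all at a mean of at least 1 TPM, and their sum was 148377 to 161259 TPM in 2D and 158835 to 171427 TPM in 3D. Most of that sum was Ins1 (0.10, adjusted p = 0.68). Of the other markers Abcc8 (0.82), Pcsk2 (0.58) and Slc2a2 (0.39) were called higher and Ins2 (-0.58, adjusted p = 0.00946) lower. The islet hormone gene Gcg was at 41.9 and 73.8 TPM in 2D and 124 and 155 TPM in 3D (adjusted p = 0.0217), the only one of 6 markers of other islet cells with a mean of at least 1 TPM. Fibroblast markers summed to 1.89 to 1.91 TPM in 2D and 2.26 to 2.35 TPM in 3D, with 1 of 6 at a mean of at least 1 TPM and Dcn, Pdgfrb and Lum listed at 0. Endothelial markers summed to 1.08 to 1.15 TPM in 2D and 1.40 to 1.68 TPM in 3D, with 1 of 5 at that level and Cdh5 and Emcn listed at 0. Blood cell markers summed to 0.516 to 0.839 TPM in 2D and 0.863 to 1.48 TPM in 3D, with none of 5 at that level and Ptprc listed at 0. The part of these shifts in the changes above was not tested.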

How the data were processed

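Poly(A) RNA of 4 cultures was read on a NextSeq 500 (75 bp, single end, stranded library). Per the labels and the study's methods, the authors quantified transcripts with Salmon 1.2 on rat build rn4 plus the human insulin gene, after FastQC 0.11.8. The deposited values are TPM per transcript, written with a decimal comma, without read counts, so the count test of the study could not be repeated. TPM was added up over the transcripts of a symbol. The 11960 genes whose mean reached 1 TPM were scaled by the trimmed mean of M values, unweighted (trim 30% of M and 5% of A), and tested as log2(TPM + 1) with limma 3.58.1 in R 4.3.3, with a variance trend, 3D against 2D, Benjamini-Hochberg adjusted at 0.05. The deposited TPM values were put on the log2 scale here, and the code was tested on simulated data. Whether groups overlap was judged on scaled TPM. Single values were tested by exact permutation, 2-sided. P-values of limma combine the spread between these 2 cultures per group with a variance trend over all genes tested. None of the p-values measures a spread beyond these cultures.

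The 10 genes and all lists were chosen with earlier results of these data known. All 10 genes and all 13 mtDNA mRNAs were named, and in each other list the 3 genes with the smallest p. Replicate numbers came from the sample titles, but same-numbered samples did not deviate together (r = -0.00601 across genes). Sequences are from RefSeq, build GRCr8, which is not the build of the files, and the files hold no coordinates. Alternatives changed the scaling, filter, pseudocount, trend, block, transcript choice and threshold, and left out each culture in turn.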

Additional observations from a re-analysis of the deposited data

How the results depend on the processing

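No read depth or count error can be had from TPM, and each fit without 1 culture leaves a group of 1, whose spread is assumed to be that of the other group. The changes of Esrra, Tfb1m and Polg kept their sign there. Leaving out 1 culture at a time gave 136 to 4515 calls over all genes against 4541 with all 4 cultures, 0 to 4 calls among the 10 genes, 0 to 3 among the 13 mtDNA mRNAs against 6, and 0 to 41 in the pathway lists against 36. The lowest counts over all genes, 136, and in the pathway lists, 0 (29 at an unadjusted p below 0.05 in limma), came without 3D replicate 1. At an adjusted p below 0.01 in limma, 1418 of all genes, 2 of the 10 genes, 1 mtDNA mRNA and 10 pathway genes were called.

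The mtDNA mRNAs moved most with the settings. There were 10 calls without scaling, 10 with a mean of at least 5 TPM, 10 without the variance trend and 1 without a filter. With insulin and mtDNA transcripts removed they have no value. Taking the replicate number as a block gave 2 mtDNA calls, 4814 over all genes, 4 among the 10 genes and 38 in the pathway lists, and since the numbers were not shown to pair the cultures, the block is only an alternative. The difference in the mtDNA share of TPM was 3.52 points with insulin transcripts left out of the total and 1.46 points without Mt-atp8 and Mt-nd4l, and 2.53 to 3.28 points without 1 culture.

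The log2 change of Nrf1 turned negative without a filter (-0.0315), and lay between -0.0011 and 0.0062 without 1 culture. That of Gabpa lay between -0.0316 without 2D replicate 2 and 0.21 without another culture. The other 8 of the 10 genes kept their sign under every alternative run. The cause of these shifts was not tested.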

Other observations

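Of the regulators listed with the coactivators, 5 had a mean below 1 TPM and were not tested. Esrrb, a relative of Esrra, was at 0.119 and 0.130 TPM in 2D and 0.528 and 0.384 TPM in 3D, with both 3D cultures above both monolayers. Perm1, a muscle regulator that acts with PGC-1, was at 0.173 and 0.198 TPM in 2D and 0.225 and 0.214 TPM in 3D. The fatty acid receptor genes Ppara (0.230 and 0.212 TPM in 2D, 0.114 and 0.125 TPM in 3D) and Pparg (0.213 and 0.136 TPM in 2D, 0.170 and 0.0475 TPM in 3D) were as low, and Gabpb1l was listed at 0 in every sample. Values this low carry no test, and how many reads stand behind them cannot be read from TPM.

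Within the 13 mtDNA mRNAs, shares are free of the level of all other transcripts. Mt-co2 took 10.5% and 11.5% of them in 2D and 9.19% and 9.73% in 3D, and Mt-nd4l 3.84% and 3.20% in 2D and 4.19% and 4.14% in 3D. Mt-nd6, from the light strand, took 0.133% and 0.153% in 2D and 0.142% and 0.126% in 3D, where the groups overlapped. All of these are shares of poly(A) RNA, and how well each mRNA was captured was not measured. These genes were picked after their values were seen, and the differences were not tested.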
